A study of Mus musculus with 2 samples.

Results

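Cebpa, Cebpb, Cebpd, Cebpe, Spi1, Irf8 and Gfi1, transcription factor genes that direct the choice between myeloid lineages, were taken from the 31053 genes of 2 single-cell libraries by their symbols. All 7 genes were found in both. The cells came from bone marrow of FVB mice. The study's text calls them wild-type, whereas its legend names VaviCre; mTmG mice, in which a Cre driven in blood cells switches a fluorescent reporter. Cells of several mice went into the sorts and cannot be told apart by animal, and the labels give no treatment or age. All were sorted as E-cadherin+ and were separated by the stem cell factor receptor cKIT into a cKIT+ and a cKIT- sort. Each sort gave 1 droplet library (10x Genomics), in which every captured RNA molecule carries a unique molecular identifier (UMI), so that a count of UMIs is a count of molecules. After the study's cell filter, 6479 cKIT+ cells and 3662 cKIT- cells were kept, with 91108781 and 22869169 UMIs in all and medians of 13039 and 4416.5 UMIs per cell, and 10 barcodes occurred in both libraries. Levels are UMIs of a gene summed over a class of cells and scaled to counts per 1000000 UMIs of that class (CPM). With 1 library per sort there is no replicate, and no difference was tested. All intervals are exact, at 95%, and cover counting error only. Kit itself stood at 37.1 CPM in the cKIT+ library and 0.875 CPM in the cKIT- library, in the direction of the labels, and Cdh1, the E-cadherin gene, at 62.8 and 193 CPM.

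The C/EBP proteins are basic leucine zipper factors that bind DNA as dimers, and their genes are switched on in sequence as granulocytes form. C/EBP alpha acts in early myeloid progenitors and, together with GATA2, in basophil and eosinophil progenitors, whereas C/EBP epsilon acts late, in the making of neutrophil and eosinophil granules. C/EBP beta and C/EBP delta respond to cytokines and stress. PU.1, the product of Spi1, is the ETS factor that most myeloid and B-lineage cells share. IRF8 directs monocyte and dendritic cell formation, and GFI1 is a repressor that takes progenitors to the neutrophil fate.

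Cells were classed by 4 genes that mark one lineage each. Mcpt8 encodes a basophil granule protease, Prg2 the major basic protein of eosinophils, Elane the neutrophil elastase made by granulocyte-monocyte progenitors, and Csf1r the receptor for the monocyte growth factor. In the cKIT+ library 3427 cells passed the Mcpt8 gate alone, 204 the Prg2 gate, 660 the Elane gate and 96 the Csf1r gate, with medians of 14056, 3283, 23519 and 5974.5 UMIs. In the cKIT- library 2657 cells passed the Mcpt8 gate (median 6264 UMIs) and 37 the Csf1r gate, with 1 Elane-gated cell and no Prg2-gated cell among 3662, which allows a share of up to 0.101% by the exact binomial interval. The gates were checked on marker lists, each of which holds its gate gene. At 20 CPM or more, 9 of 10 basophil markers were present in the Mcpt8 gate of the cKIT+ library and 10 of 10 in that of the cKIT- library. Of 9 eosinophil markers 8 were present in the Prg2 gate, and all 5 granulocyte-monocyte progenitor markers in the Elane gate. The cKIT+ Csf1r gate held all 6 monocyte markers (2273 CPM summed). All 5 macrophage markers (7685 CPM) and 3 of 5 dendritic cell markers were present there too, the dendritic cell list with the largest sum of the 3 (23421.5 CPM). Markers of other lineages were also found. The Prg2 gate held 7 of 10 basophil markers (Cd200r3 and Il4 at 0), 5 of 5 progenitor markers (7015 CPM summed) and 6 of 7 neutrophil markers (7048 CPM). The cKIT+ Csf1r gate held 7 of 7 neutrophil markers (15123 CPM) and 6 of 10 basophil markers (568 CPM). It also held 4 of 9 eosinophil markers (369 CPM), with Epx, Il5ra and Siglecf at 0. The Elane gate held 6 of 7 neutrophil markers (30670 CPM) and 6 of 10 basophil markers (646 CPM), with Cd200r3 at 0. The progenitor markers summed to 8735 CPM in the cKIT+ and 5509.8 CPM in the cKIT- Mcpt8 gate. Their part in the results was not tested. Although all cells were sorted as E-cadherin+, Cdh1 RNA differed between the cKIT+ gates. It stood at 99.8 CPM in the Mcpt8 and 19.9 CPM in the Prg2 gate. In the Elane gate it was 1.78 CPM (27 UMIs) and in the Csf1r gate 2.97 CPM (2 UMIs). A further 67 cKIT+ cells were positive for Elane and Prg2, 13 for Elane and Csf1r and 129 for other mixtures. Cells outside these gates were split into haemoglobin-high (55 cKIT+ cells), Ngp-high, Gzmb-high and Cd79a-positive cells and a remainder. The haemoglobin-high cells, red cell precursors by that gene, should lack most of these factors, and their levels (median 4309 UMIs per cell) are given as the background.

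The start regions of Cebpa, Cebpb and Irf8 are shown because the levels of the first 2 ran together over the cell classes and that of Irf8 ran apart from both. Each is the 250 bases before the annotated start, 5′ to 3′ on the gene's strand, from RefSeq on GRCm38.p6, whose table held 4 of the 7 genes. Capitals mark the motifs TATAAA (the TATA box), TTGCG (part of the C/EBP site), TGACG (part of the cyclic AMP response site) and TTCNNNGAA (the STAT site), searched on both strands, and no marked motif overlaps another. The table holds a second start region for Irf8, with no match to these motifs, which is not shown.
Cebpa, chr7:35119043-35119292, plus strand: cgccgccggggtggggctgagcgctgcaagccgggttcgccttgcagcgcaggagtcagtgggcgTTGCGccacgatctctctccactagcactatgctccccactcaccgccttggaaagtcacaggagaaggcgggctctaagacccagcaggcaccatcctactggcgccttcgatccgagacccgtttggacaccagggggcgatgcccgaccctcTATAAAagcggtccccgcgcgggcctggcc
Cebpb, chr2:167688665-167688914, plus strand: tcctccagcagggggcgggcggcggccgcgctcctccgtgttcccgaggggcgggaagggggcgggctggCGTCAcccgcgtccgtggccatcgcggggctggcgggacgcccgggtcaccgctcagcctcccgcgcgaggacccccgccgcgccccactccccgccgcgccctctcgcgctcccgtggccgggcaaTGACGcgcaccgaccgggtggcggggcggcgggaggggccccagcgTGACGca
Irf8, chr8:120736108-120736357, plus strand: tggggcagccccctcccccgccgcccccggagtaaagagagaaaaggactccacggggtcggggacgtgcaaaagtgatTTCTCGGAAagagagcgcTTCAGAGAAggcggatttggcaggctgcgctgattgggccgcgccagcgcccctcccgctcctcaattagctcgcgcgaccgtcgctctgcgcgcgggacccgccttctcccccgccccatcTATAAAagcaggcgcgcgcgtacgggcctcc
The Cebpa region held TATAAA 30 bases and TTGCG 185 bases before the start. The Cebpb region held TGACG at 180, 53 and 7 bases, the first on the minus strand, and had no TATAAA within these letters. The Irf8 region held TATAAA at 31 bases and TTCNNNGAA at 171 and 153 bases. Among 32851 promoters of the same length in the table, 12.4% held TATAAA, 14.5% TTGCG, 17.8% TGACG and 7.02% TTCNNNGAA. These matches are letters only, and nothing in the libraries measured binding.

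Between the sorted libraries the C/EBP genes split in opposite directions. Cebpa stood at 223 CPM in cKIT+ cells (20306 UMIs, interval 219.8 to 226) and 667 CPM (15260 UMIs, 657 to 678) in the cKIT- cells, and was 2.99-fold higher in the cKIT- library (2.93 to 3.06). Cebpb stood at 165 CPM and 456 CPM and was 2.76-fold higher in cKIT- cells (2.69 to 2.83). Both were thus higher by CPM in the cKIT- library, and their intervals hold no variation between cells, animals or libraries. Cebpd, at 93.0 CPM against 150.3 CPM, was 1.62-fold higher in cKIT- cells (1.55 to 1.68), short of 2-fold. Cebpe went the other way. Its level was 149 CPM in the cKIT+ library (13612 UMIs) and 5.38 CPM in the cKIT- library (123 UMIs), and it was 27.8-fold higher in cKIT+ cells (23.3 to 33.5).

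The partner factors ran in both directions between the libraries. Spi1 stood at 201 CPM in the cKIT+ library and 288 CPM in the cKIT- library, a 1.44-fold higher level in the latter (1.40 to 1.48). Irf8 stood at 27.6 CPM and 44.9 CPM, 1.62-fold higher in cKIT- cells (1.51 to 1.75). Gfi1 stood at 23.8 CPM and 7.91 CPM and was 3.01-fold higher in cKIT+ cells (2.58 to 3.52). A floor of 20 CPM in either library left 6075 genes, of which 6.35% were higher by 2-fold or more in the cKIT+ library and 9.56% lower. Of the 7 factor genes, 2 were higher and 2 lower. The higher ones, Cebpe and Gfi1, passed the floor only through the cKIT+ library. In UMIs per cell, where the cKIT- cells were shallower, the ratios of cKIT+ over cKIT- were 0.752 for Cebpa and 0.817 for Cebpb, which ended both calls, and 1.39 for Cebpd, 1.57 for Spi1 and 1.39 for Irf8, which turned their direction. After thinning each cell to 2000 UMIs, the Gfi1 ratio was 1.88, under 2-fold.

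**Figure D1:**
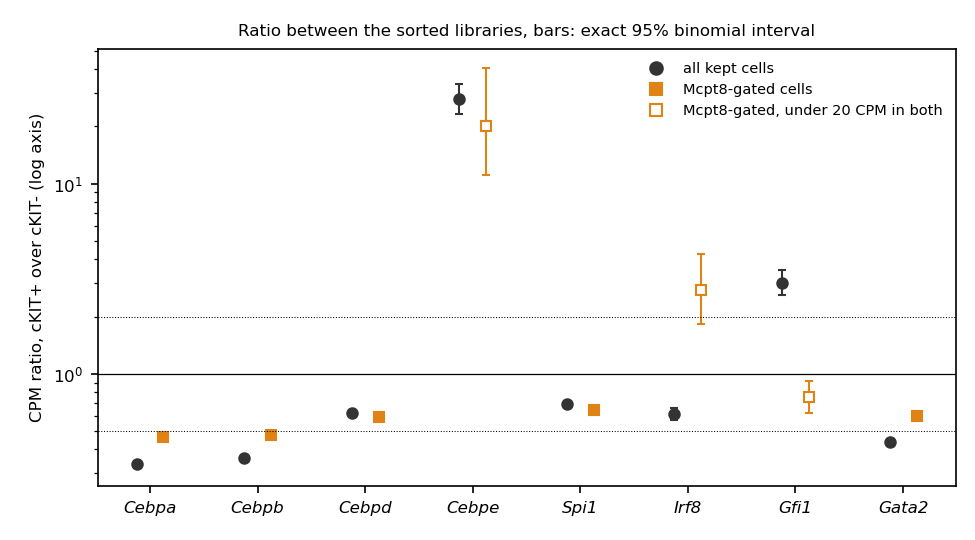
Ratio of CPM, cKIT+ over cKIT-, on a log axis for the 7 genes and Gata2, over all kept cells (circles) and over Mcpt8-gated cells (squares, open where both libraries were under 20 CPM). Bars are exact 95% binomial intervals and dotted lines mark 2-fold. Cebpe lies above 1 in both sets of cells, Gfi1 above 1 over all cells, and Cebpa, Cebpb, Cebpd, Spi1 and Gata2 below 1 in both.

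The mixture of lineages differed between the sorts, since Mcpt8-gated cells were 52.9% of cKIT+ and 72.6% of cKIT- cells, so the comparison was repeated within the Mcpt8 gate. Cebpa stood at 325 CPM in Mcpt8-gated cKIT+ cells and 701 CPM in Mcpt8-gated cKIT- cells, 2.15-fold higher in the latter (2.11 to 2.20). Cebpb stood at 225 CPM and 471 CPM, 2.09-fold higher (2.04 to 2.15). Cebpd was 1.69-fold higher (1.60 to 1.78) and Spi1 1.55-fold higher (1.498 to 1.61) in the cKIT- cells, at 76.7 against 129.5 CPM and at 169 against 262 CPM. All 4 of these genes were thus higher in cKIT- cells of the basophil gate, by between 1.55-fold and 2.15-fold. Gata2, the GATA factor of basophils and mast cells, was 1.66-fold higher in the same direction (1.63 to 1.69). At 2000 UMIs per cell a Cebpa UMI was found in 48.6% of the cKIT+ cells and 76.0% of the cKIT- cells. A Gata2 UMI was found in 74.6% and 89.5%, and both in 36.7% and 68.1%. Cebpa was about as frequent with Gata2 as without it. Its shares with and without were 49.2% and 47.0% in cKIT+ cells and 76.1% and 75.1% in cKIT- cells.

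The other 3 factor genes were near the floor in Mcpt8-gated cells. Cebpe stood at 11.3 CPM in the cKIT+ cells and 0.562 CPM in the cKIT- cells, where 11 UMIs were counted in all. In the cKIT+ cells its 569 UMIs lay in 3.18% of the cells, and 9 of the 11 UMIs of the cKIT- cells lay in 1 cell. Without the 5% of cells with most UMIs the Cebpe ratio moved from 20.03 to 139. Irf8 stood at 3.80 and 1.38 CPM and Gfi1 at 6.09 and 8.07 CPM. Of 5858 genes past the floor in this comparison, 4.17% were at least 2-fold higher in the cKIT+ cells and 6.56% at least 2-fold lower, and of the 4 factor genes past it 0 were higher and 2 were lower. The 7 neutrophil markers summed to 3728 CPM in the cKIT+ Mcpt8 gate (6 of 7 at 20 CPM or more) and to 530 CPM in the cKIT- gate (5 of 7), so they moved with Cebpe, and their part in its difference was not tested. Per cell, the ratio of Cebpa was 0.930 and that of Cebpb 0.956, which ended both calls, and those of Cebpd and Spi1 turned to 1.19 and 1.29. The Cebpb call was also lost at 0.506 after thinning and 0.501 as a mean of per-cell CPM, where Cebpd passed 2-fold at 0.494.

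Within the basophil gate the factor genes also varied with the level of Mcpt8 itself, and by CPM the libraries ran in opposite directions for Cebpa. In cKIT+ cells Cebpa was 232 CPM at a Mcpt8 level of 2000 to 5000 CPM in the cell (359 cells), 271 CPM at 5000 to 10000, 314 CPM at 10000 to 20000 and 368 CPM above 20000 (1584 cells). In cKIT- cells the same 4 steps gave 937 CPM (453 cells), 1003 CPM, 744 CPM and 651 CPM (1620 cells). The ratio of the highest to the lowest step was 1.59 in cKIT+ cells (1.49 to 1.69) and 0.695 in cKIT- cells (0.657 to 0.736). Spi1 was nearly level in cKIT+ cells, with a ratio of 1.10 (1.02 to 1.18), and fell from 478 to 227 CPM in cKIT- cells, a ratio of 0.475 (0.438 to 0.516). Cebpd fell from 287 to 105 CPM in cKIT- cells, a ratio of 0.365 (0.328 to 0.407), against 1.26 in cKIT+ cells (1.11 to 1.42). After thinning to 2000 UMIs the fall in cKIT- cells was still seen, from 61.6% to 37.6% of cells with a Spi1 UMI and from 43.7% to 18.5% with a Cebpd UMI, but no rise was seen in cKIT+ cells, at 30.1% and 27.9% for Spi1 and 15.5% and 15.3% for Cebpd. Cebpb was higher in the highest step in both libraries, by 2.30-fold in cKIT+ cells (2.12 to 2.50) and by 1.17-fold in cKIT- cells (1.08 to 1.28).

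Cebpe and Irf8 were highest in the lowest Mcpt8 step of the cKIT+ library, though below their levels in Elane-gated cells. Cebpe fell from 36.4 CPM in the lowest step to 2.29 CPM in the highest, 15.9-fold (11.6 to 22.0), and Irf8 from 14.0 to 1.95 CPM, 7.20-fold (4.88 to 10.7). Few cells carried these levels. The 70 Irf8 UMIs of the lowest step lay in 18 of its 359 cells, 5.01%, against 2.78% in the highest step, and after thinning the shares were 0.896% and 0.634%, with overlapping intervals. The Cebpe UMIs lay in 31 cells, 8.64%, against 1.64%. In cKIT- cells the lowest step held no Cebpe UMI and 2 Irf8 UMIs. Depth moved with these steps in the cKIT- library, where the median was 3205 UMIs in the lowest step and 9306 in the highest, against 13510 and 14059.5 in the cKIT+ library, and its part was not tested. At 2000 UMIs per cell a Cebpa UMI was found in 84.9% of the lowest-step and 72.2% of the highest-step cKIT- cells, and in 38.5% and 53.0% of the cKIT+ cells.

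**Figure D2:**
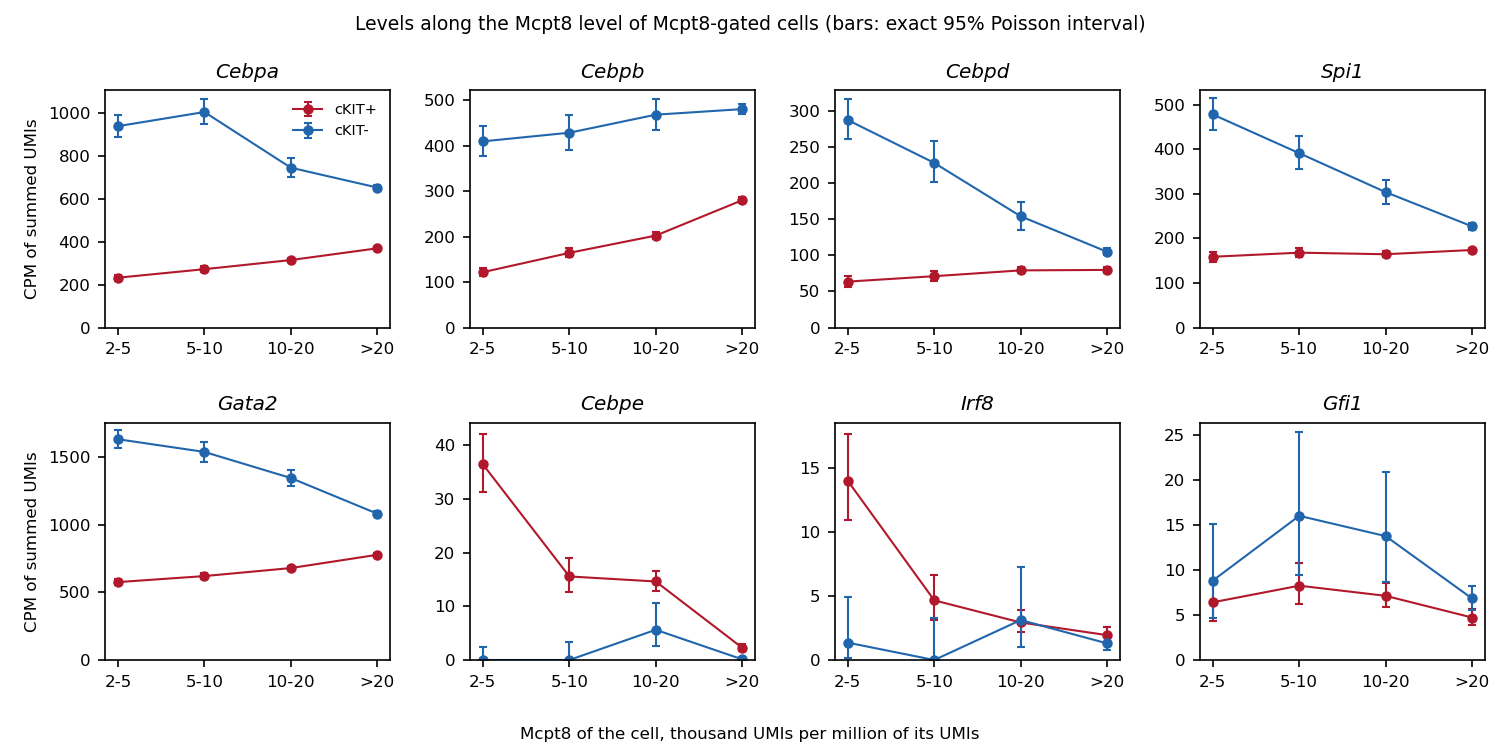
CPM of 8 genes in Mcpt8-gated cells of the cKIT+ (red) and cKIT- (blue) library, in 4 steps of the cell's Mcpt8 level on the horizontal axis, with exact 95% Poisson intervals as bars. Cebpa, Spi1, Cebpd and Gata2 are lower in the highest than in the lowest step in cKIT- cells and higher by CPM in cKIT+ cells, where the shares of cells with Spi1 and Cebpd at equal depth did not rise, and Cebpe falls from 36.4 to 2.29 CPM in cKIT+ cells.

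By CPM, Cebpa, Cebpd, Spi1 and Gfi1 were higher in cells not called cycling in both libraries, and Cebpb was lower. Cells with at least 3 UMIs of the cell cycle genes Mki67 and Top2a together were called cycling, 1998 cKIT+ and 873 cKIT- cells of the Mcpt8 gate. Cebpa, which is known to restrain cell division, was higher in the cells not called cycling by 1.34-fold in the cKIT+ library (395 against 295 CPM, 1.30 to 1.38) and by 1.51-fold in the cKIT- library (846 against 559 CPM, 1.46 to 1.57). Gfi1 was higher in them by 1.98-fold (1.57 to 2.49) and 2.75-fold (1.92 to 3.999), at levels under 12 CPM. Cebpd was higher by 1.23-fold and 1.55-fold, and Spi1 by 1.05-fold (1.00 to 1.10) and 1.43-fold. Cebpb was lower in them, with ratios of 0.883 (0.847 to 0.920) and 0.927 (0.890 to 0.966). The cells called cycling were also deeper, with medians of 17387 against 10818 UMIs and 11172 against 4339.5 UMIs.

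Across the lineage gates of the cKIT+ library the C/EBP genes divided the cells. In Elane-gated cells Cebpe stood at 436 CPM (426 to 447) against 11.3 CPM in Mcpt8-gated cells, 38.7-fold higher (35.5 to 42.3). Gfi1 stood at 95.8 against 6.09 CPM, 15.7-fold higher (13.9 to 17.8), and Irf8 at 52.9 against 3.80 CPM, 13.9-fold higher (11.9 to 16.4). In the same cells Cebpa was 4.17-fold lower than in the Mcpt8 gate (78.0 CPM, 3.93 to 4.43) and Cebpb 2.09-fold lower (108 CPM, 1.98 to 2.20). Cebpd, at 136 CPM, and Spi1, at 288 CPM, were 1.77-fold and 1.71-fold higher. Of 5795 genes past the floor, 5.28% were at least 2-fold higher in the Elane gate and 8.54% at least 2-fold lower. Of the 7 factor genes 3 were higher and 2 lower. The 3 higher ones, Cebpe, Gfi1 and Irf8, passed the floor only through the Elane gate. Without the 5% of cells with most UMIs the Cebpe ratio was 59.99 and the Irf8 ratio 9.37, and after thinning the Cebpe ratio was 67.99. Per cell, the Cebpb ratio of Elane-gated over Mcpt8-gated cells was 0.747, which ended that call (as did a wider Mcpt8 gate chosen after seeing the data, at 0.541), while Cebpd and Spi1 passed 2-fold at 2.75 and 2.66.

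At equal depth, Irf8 was seldom found in the same Elane-gated cells as Cebpe or Gfi1. At 2000 UMIs per cell, 348 of 655 Elane-gated cells had a Cebpe UMI and 31 an Irf8 UMI, and 3 cells had both. Irf8 was thus found in 0.862% of the cells with Cebpe and in 28 of the 307 others, 9.12%. Of 111 cells with a Gfi1 UMI 1 also had Irf8, against 30 of the 544 others, or 5.51%. Over all UMIs the 802 Irf8 UMIs of this gate lay in 68 cells, 10.3% of it, whereas Cebpe UMIs were found in 93.5% and Gfi1 UMIs in 72.0% of the gate. At full depth some cells must therefore have held both Irf8 and Cebpe, and their number was not counted. These are counts of 1 library, and a cell without a UMI may still hold the RNA.

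Prg2-gated cells had the same 2 C/EBP genes low and Cebpe higher still. Cebpe stood at 934 CPM (883 to 987), 82.95-fold over the Mcpt8 gate (75.1 to 91.7), and 78.9% of these cells had a Cebpe UMI at 2000 UMIs (71.0 to 85.5). Cebpa stood at 34.6 CPM from 47 UMIs, 9.39-fold lower than in the Mcpt8 gate (7.06 to 12.8), and Cebpb at 48.7 CPM, 4.62-fold lower (3.63 to 5.98). Gfi1, at 33.2 CPM, was 5.44-fold higher (3.89 to 7.46). Cebpd was at 64.1 CPM and Spi1 at 187 CPM, and the ratios of both, 0.836 (0.668 to 1.03) and 1.11 (0.976 to 1.26), had intervals that reach an equal level. Irf8 had 4 UMIs, or 2.95 CPM. Gata2, which eosinophil and basophil progenitors share, was 7.22-fold lower than in the Mcpt8 gate (98.0 CPM, 6.09 to 8.63). After thinning the Cebpe ratio was 130.04, and in UMIs per cell it was 37.4 and that of Cebpd 0.377, past 2-fold. Of 6147 genes past the floor 7.71% were at least 2-fold higher and 5.97% at least 2-fold lower. Of the 6 factor genes past it 2 were higher and 2 lower. The higher ones, Cebpe and Gfi1, passed it only through the Prg2 gate.

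The Prg2-gated cells were of 2 depths. The 122 cells under 5000 UMIs had a Cebpe level of 910 CPM (793 to 1038) and the 82 deeper ones 939 CPM (883 to 998), so the Cebpe level was alike in both. Spi1 was 78.6 CPM (47.3 to 123) in the shallow and 211 CPM (185 to 240) in the deeper cells, and Gfi1 62.0 CPM (34.7 to 102) and 26.9 CPM (18.2 to 38.4). The 67 cells positive for Elane and Prg2 together had 994 CPM of Cebpe (934 to 1057), not apart from the Prg2 gate, and 44.2 CPM of Cebpa.

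Of the 4 lineage gates of the cKIT+ library, the Csf1r gate had the highest Irf8 level. Ungated cells with Siglech, a dendritic cell gene, or the class II gene H2-Aa had more, at 1083 CPM (cKIT+) and 3615 CPM (cKIT-). In the cKIT+ Csf1r gate Irf8 stood at 473 CPM (318 UMIs, 422 to 528). This was 124-fold over the Mcpt8 gate (104 to 150) and 8.95-fold over the Elane gate (7.83 to 10.2). In the 37 cKIT- cells of the Csf1r gate Irf8 stood at 344 CPM (279 to 419). Spi1 was 2.21-fold higher than in the Mcpt8 gate (373 CPM, 1.94 to 2.51). Gfi1 had no UMI among 672373 UMIs of the cKIT+ gate, which makes it at least 21.5-fold lower than in the Elane gate when 3 counts are taken as the limit. Cebpe was 15.4-fold lower than in the Elane gate (9.87 to 25.6). It was formally 2.51-fold higher than in the Mcpt8 gate (1.4999 to 3.96), but its 28.3 CPM were 19 UMIs in 2 cells. The background of 39.4 CPM in haemoglobin-high cells was no firmer, with 12 UMIs in 1 of 55 cells (20.3 to 68.8). Cebpa was 3.53-fold lower than in the Mcpt8 gate (92.2 CPM, 2.75 to 4.604) and not apart from the Elane gate (1.18-fold, 0.900 to 1.53). Cebpd, at 96.7 CPM, was 0.713 of the Elane-gated level (0.548 to 0.913).

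Against the Mcpt8 gate, 23.4% of 6806 genes were at least 2-fold higher in the Csf1r gate and 14.0% at least 2-fold lower. Of the 6 factor genes past the floor 3 were higher and 1 lower. Of the higher ones, Cebpe and Irf8 passed it only through the Csf1r gate. Against the Elane gate the shares were 26.2% and 14.7% of 6737 genes, beside 2 and 2 of the 7. These shares of all genes are high, so a single factor gene past 2-fold here stands among many. Per cell, the ratio of Spi1 over the Mcpt8 gate was 1.05 and that of Cebpe 1.19, which ended both calls, and the ratio of Cebpb over the Elane gate turned from 2.12 (1.79 to 2.51) to 0.647. Scaling by TMM, the trimmed mean of edgeR, also ended the calls of Spi1 (1.91) and Cebpb (1.76), and the mean of per-cell CPM that of Cebpe (1.39).

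Cebpb split the Csf1r gate from within. It was 98.9 CPM (69.7 to 136) in the 52 cKIT+ cells with at least 3 UMIs of the macrophage gene C1qa, 69.5 CPM (34.7 to 124) in the 19 others with the class II gene H2-Aa, and 757 CPM (620 to 915) in the remaining 25. Those 25 cells also held the monocyte gene Ly6c2 at 464 CPM, against 10.7 and 18.9 CPM in the first and second sets. In the cKIT- library the 23 such cells had 834 CPM of Cebpb (707 to 978) and 1122 CPM of Ly6c2, and the split was smaller, with 507 CPM of Cebpb (374 to 673) in the 11 H2-Aa cells and 324 CPM from 4 UMIs in the 3 C1qa cells. Without the C1qa-positive cells the Cebpb ratio of the Csf1r over the Elane gate was 3.64, a value chosen after seeing the data. Irf8 did not follow that split, with 473, 429 and 521 CPM in the 3 cKIT+ sets, whose intervals overlap.

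**Figure D3:**
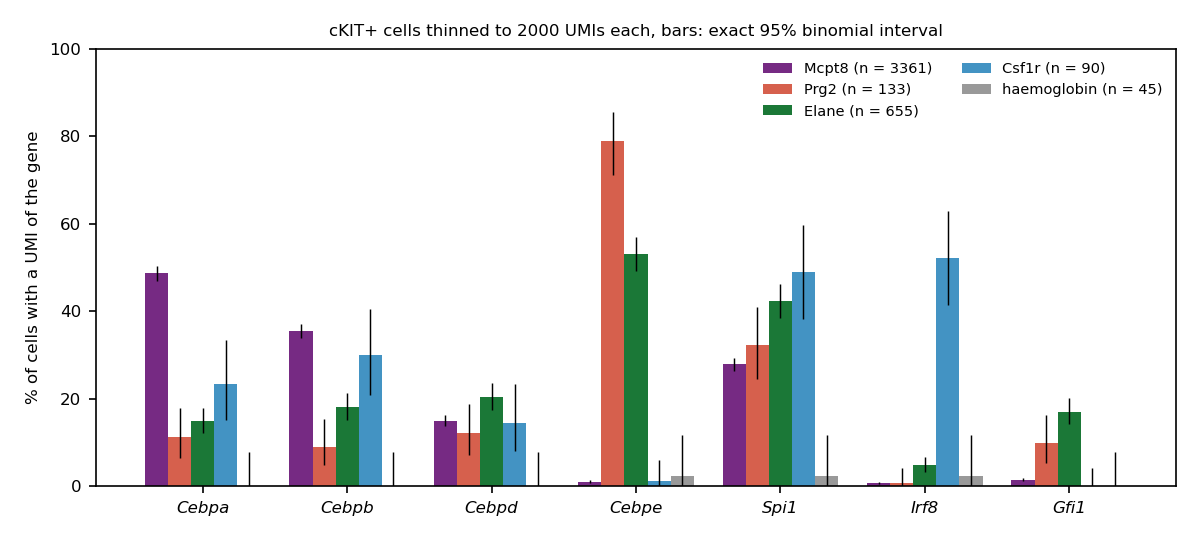
Share of cKIT+ cells with at least 1 UMI of each factor gene, after thinning every cell to 2000 UMIs, in the 4 lineage gates and the haemoglobin-high cells, with exact 95% binomial intervals. Cebpa is most often found in Mcpt8-gated cells (48.6%), Cebpe in Prg2-gated cells (78.9%), Irf8 in Csf1r-gated cells (52.2%) and Gfi1 in Elane-gated cells (16.9%).

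In haemoglobin-high cells (45 thinned cells) the share with a UMI was 0% for Cebpa, Cebpb, Cebpd and Gfi1, with upper limits of 7.87%, and 2.22% (0.0562 to 11.8) for Cebpe, Spi1 and Irf8, 1 cell each. The shares of Cebpe (0.893%) and Irf8 (0.655%) in Mcpt8-gated cKIT+ cells lay below it and are not told from background, itself 1 cell, and that of Gfi1 (1.43%) lay within the upper limit. Spi1 was found above it in each of the 4 gates, in 27.8% of Mcpt8-gated, 32.3% of Prg2-gated, 42.3% of Elane-gated and 48.9% of Csf1r-gated cells.

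Each gene had its own order over the 14 classes of at least 50 cells. Among these, the ungated cKIT- class held 10 of 10 basophil markers at 20 CPM or more (10107 CPM summed). Of its 710 cells, 582 had at least 3 UMIs of the basophil genes Fcer1a, Ms4a2 and Cd200r3 together. Cebpa was highest in the ungated cKIT- cells (739 CPM) and Mcpt8-gated cKIT- cells (701 CPM), which were not apart, then in Mcpt8-gated cKIT+ cells (325 CPM), and it was lowest in Gzmb-high (18.3 CPM), Ngp-high (18.2 CPM), Cd79a-positive and haemoglobin-high cells, where no step was apart. The Gzmb-high cells held 2 of 5 mast cell markers (2781 CPM summed), among them the gate gene Gzmb, with Tpsb2 and Tpsab1 at 0. They also held 7 of 10 basophil markers (3528 CPM). Gata2 stood at 910.3 CPM in this class, so that Gata2 was high and Cebpa low in its summed counts. Cebpb had the same 2 classes on top (471 and 455 CPM, not apart), followed by Csf1r-gated and Mcpt8-gated cKIT+ cells (229 and 225 CPM, not apart). Mcpt8-gated cells held 81.0% of all Cebpa UMIs and 75.4% of all Cebpb UMIs of the cKIT+ library, and 89.9% and 88.4% of those of the cKIT- library. Of the UMIs of all genes they held 50538551 of 91108781 in the cKIT+ and 19570919 of 22869169 in the cKIT- library. Levels in the cKIT- gate were thus near those of all cKIT- cells, at 701 against 667 CPM for Cebpa and 471 against 456 CPM for Cebpb.

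Cebpd and Cebpe were both high in Ngp-high and Elane-gated cells, and parted elsewhere. Cebpd stood at 64.1 CPM in Prg2-gated cells, and Cebpe at 5.92 CPM in ungated cKIT- cells. Mcpt8-gated cells held 45.8% of the Cebpd UMIs of the cKIT+ library and 73.8% of those of the cKIT- library. Its level there was below that of the whole library, at 76.7 against 93.0 CPM and 129.5 against 150.3 CPM. Cebpd was highest in Ngp-high cells (396 CPM), which carry neutrophil secondary granule genes, then in ungated cKIT- cells (354 CPM) and Elane-gated cells (136 CPM). Cebpe was highest in the Elane and Prg2 double-positive and Prg2-gated cells, then in Ngp-high cells (747 CPM) and Elane-gated cells (436 CPM), with every step between the last 3 apart. In the cKIT- library 77.2% of the 123 Cebpe UMIs lay in 23 Ngp-high cells, which had 532 CPM of Cebpe (430 to 650). Elane-gated cells held 48.6% of the Cebpe UMIs and 67.0% of the Gfi1 UMIs of the cKIT+ library, beside 15170949 of its 91108781 UMIs of all genes.

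Spi1 was spread over all the classes. From ungated cKIT- cells (532 CPM) through Ngp-high (429.7 CPM), Csf1r-gated (373 CPM) and Elane-gated cells (288 CPM) each step was apart, and the level fell to 163.5 CPM in Cd79a-positive cKIT- cells, 68.9 CPM in Gzmb-high cells and 26.3 CPM in haemoglobin-high cells. Irf8 was highest in Csf1r-gated cKIT+ cells and, not apart from them, in Cd79a-positive cKIT- cells (407 CPM, 361 to 457), and stood at 152 CPM in Cd79a-positive cKIT+ cells. Gfi1 was highest in Elane-gated cells, then in the mixed class (56.6 CPM), and the 3 classes after them, double-positive (38.3 CPM), Prg2-gated (33.2 CPM) and Ngp-high cells (30.9 CPM), were not apart step by step.

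**Figure D4:**
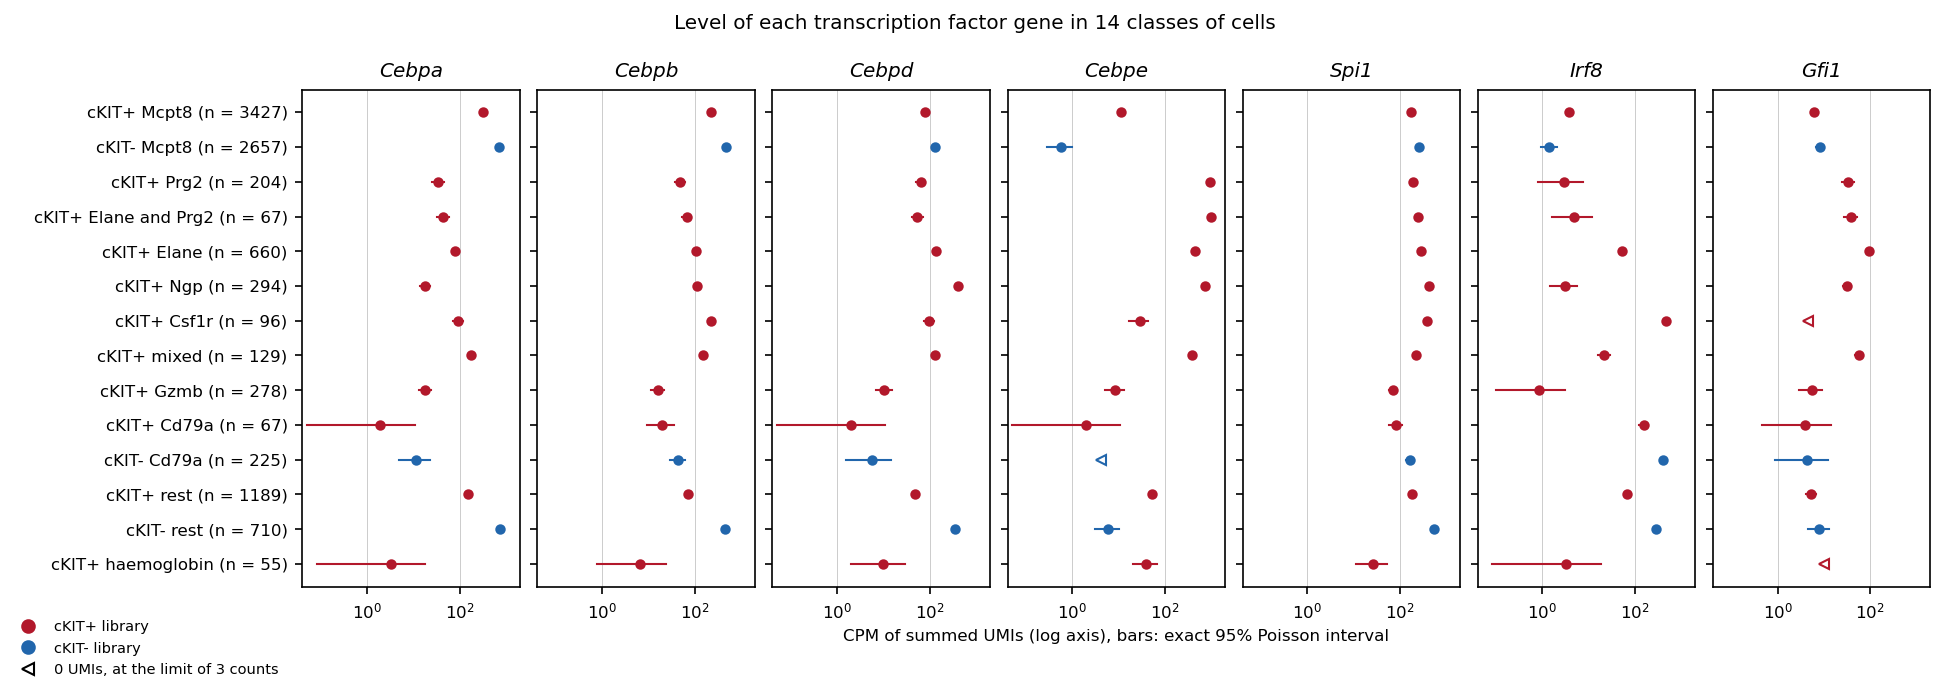
CPM of each factor gene on a log axis in 14 classes of cells from the cKIT+ (red) and cKIT- (blue) library, with exact 95% Poisson intervals, and open triangles at the limit of 3 counts where no UMI was found. Cebpa and Cebpb peak in Mcpt8-gated and ungated cKIT- cells, Cebpe in cells with Prg2, Irf8 in Csf1r-gated and Cd79a-positive cells, and Gfi1 in Elane-gated cells. The ungated cKIT- class held 10 of 10 basophil markers at 20 CPM or more.

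Over these 14 classes the log2 levels of Cebpa and Cebpb had a Pearson r of 0.89, Cebpb and Spi1 of 0.86, Cebpe and Gfi1 of 0.62, and Irf8 and Cebpa of 0.02. The classes share libraries and depth, so these values only describe. By the same measure among 8740 genes, Cebpa was closest to Man2b1 (0.92), Hgf and Emb. Cebpb was closest to Nhsl2 (0.93), Hcst and Serf2, and Cebpd to Sqor (0.97), Igsf6 and Hk3. Cebpe was closest to Olr1 (0.95), Gpc1 and B4galt6, Spi1 to Lyst (0.93), Tmem50b and Fam49b, Irf8 to Ly86 (0.96), Klf4 and Il6st, and Gfi1 to Baz1a (0.94), Ccdc125 and Lta4h.

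Other genes of the same pathways were taken as lists. Of 14 partner fate factors, 10 passed the floor between the libraries, 1 higher and 3 lower in cKIT+ cells, with a median log2 ratio of -0.74 against -0.06 over all genes, of which 6.35% were higher and 9.56% lower. Myb, a factor of immature cells, was 4.27-fold higher (4.06 to 4.49), and Id1 2.88-fold lower (2.78 to 2.99). In the Elane against the Mcpt8 gate 9 passed, 1 higher and 6 lower (median log2 ratio -1.66 against 0.01 over all genes), beside 5.28% and 8.54% of all genes. There Gfi1b, the relative of Gfi1 in erythroid, megakaryocyte and basophil cells, was 54.3-fold lower (27.5 to 126, from 8 UMIs), opposite to Gfi1, and Gata2 30.9-fold lower (27.8 to 34.5). In the Csf1r against the Mcpt8 gate 11 passed, 3 higher and 6 lower (median log2 ratio -2.28 against 0.06), beside 23.4% and 14.0% of all genes, with Klf4, a monocyte factor, 50.5-fold higher (33.5 to 75.5).

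Of 7 other C/EBP and basic leucine zipper genes, 5 passed the floor between the libraries, 0 higher and 1 lower, beside 6.35% and 9.56% of all genes. Their median log2 ratio was -0.49 against -0.06. Nfil3 was 6.21-fold lower in cKIT+ cells (5.71 to 6.77) and 4.33-fold lower in the Mcpt8 gate (3.93 to 4.77). Cebpg was 2.17-fold lower in the Elane than in the Mcpt8 gate (1.96 to 2.40), and Batf3, a dendritic cell factor, stood at 68.4 CPM in the Csf1r gate and 0.0791 CPM in the Mcpt8 gate (4 UMIs).

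Lists of granule, receptor, monocyte and dendritic genes differed between the libraries and between the gates. All 8 secondary granule genes passed the floor between the libraries, 6 higher in cKIT+ cells and 0 lower by 2-fold, beside 6.35% and 9.56% of all genes. Camp was 7.27-fold higher (7.15 to 7.41), and the median log2 ratio was 1.71 against -0.06 over all genes. In the Elane against the Mcpt8 gate 5 passed and 5 were higher (median 2.42 against 0.01), beside 5.28% of all genes. In the Prg2 against the Mcpt8 gate 5 passed and 4 were higher (median 1.18 against 0.09), beside 7.71% of all genes, among them Ltf (2.57-fold, 2.26 to 2.91). The haemoglobin-high cells held 18907 CPM over the 7 neutrophil markers. Whether levels of these genes in other classes include RNA from other cells was not tested. Of 11 myeloid receptor and primary granule genes, 10 passed in the Elane gate, 6 higher and 3 lower, beside 5.28% and 8.54% of all genes. Their median log2 ratio was 1.55. Csf3r, the granulocyte growth factor receptor, led them (56.0-fold, 40.7 to 79.1), and Csf2rb was 8.54-fold lower (7.79 to 9.39). Of 10 monocyte and dendritic genes 9 passed in the Csf1r against the Mcpt8 gate and all 9 were higher, beside 23.4% of all genes. Between the Mcpt8 gates of the sorts only 1 of these 10 passed the floor, so most of the 9 passed only through the Csf1r gate. Their direction was thus largely fixed by the floor and by gating on a monocyte gene. Ctss stood at 1600 CPM against 0.9102 CPM. The median log2 ratio of that list was 6.43, against 0.06 over all genes.

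The genes lie on GRCm38 (mm10) at chromosome 7 from 35119293 to 35121928 (Cebpa), chromosome 2 from 167688915 to 167690418 (Cebpb), chromosome 16 from 15887286 to 15891031 (Cebpd), chromosome 14 from 54710360 to 54712174 (Cebpe), chromosome 2 from 91082390 to 91115756 (Spi1), chromosome 8 from 120736358 to 120756694 (Irf8) and chromosome 5 from 107716657 to 107726036 (Gfi1), with Cebpe and Gfi1 on the minus strand. Genes on the opposite strand overlap Cebpa (Gm45091, 5 and 2 UMIs in the cKIT+ and cKIT- library), Cebpb (Tmem189, 1956 and 851 UMIs) and Cebpd (Spidr, 1781 and 434 UMIs). Gm20388 spans Irf8 on the same strand and had 0 UMIs in both libraries.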

How the data were processed

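The authors aligned the reads of both sorted libraries to mm10 with Cell Ranger 3.0.2 and deposited unnormalised UMI counts for each gene in each cell. The labels name version 2 of the 10x kit and the methods version 3, and no value printed depends on it. The study's filter was applied to each library (genes seen in at least 40 cells, cells outside the highest and lowest 1% by genes and the highest 1% by UMIs).

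A cell passed the Mcpt8 gate at 3 or more UMIs and 2000 CPM, the Prg2 and Elane gates at 3 and 500 CPM, and the Csf1r gate at 2 and 100 CPM. Cells passing none were taken as haemoglobin-high (20000 CPM), Ngp-high (5000), Gzmb-high (3 UMIs and 500) or Cd79a-positive (3 UMIs), in that order. No doublet caller was run, and cells passing several gates were kept apart. Counts were summed per class, and genes with at least 20 CPM in either class were called at 2-fold. A gene under that floor in 1 class could pass only through the other, where it was higher. Ratios carry exact binomial and levels exact Poisson intervals, and neighbours in an order were called apart where the interval of their ratio left out 1. No test was made with 1 library per sort. Thinning drew 2000 UMIs per cell, leaving out 345 cKIT+ and 176 cKIT- cells. Correlations used log2(CPM + 1). Positions came from GENCODE M21, where 30934 of 31053 gene IDs were found.

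Named are the 7 factor genes, gate genes, Kit, Cdh1 and the 3 nearest genes of each factor. From the 2 genes of each list with the largest ratio in each direction, only some were picked for naming. Genes that define gates and sets were named too. Members, gates and lists were chosen with earlier results of these data known. Alternatives covered the cell filter, depth, scaling with edgeR 4.0.16 (TMM), gates, floor and fold. Python 3.11.15 with numpy 2.4.6 and scipy 1.17.1 was used. Other assays of the study, and C/EBP protein sequences, were not analysed here.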

Additional observations from a re-analysis of the deposited data

Results flagged for a closer look

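By CPM, 3 factor genes ran in opposite directions with Mcpt8 in the Mcpt8-gated cells of the sorts. From the lowest to the highest Mcpt8 step the ratio was 1.59 in cKIT+ and 0.695 in cKIT- cells for Cebpa, 1.26 and 0.365 for Cebpd, and 1.10 and 0.475 for Spi1. When the gate was split at each library's median of Prss34, a second basophil protease gene, the ratio of the cells above it over those below was 1.27 and 0.824 for Cebpa, 1.07 and 0.685 for Spi1 and 1.02 (0.956 to 1.09) and 0.558 (0.516 to 0.604) for Cebpd. All these intervals left out 1 except that of Cebpd by Prss34 in cKIT+ cells, and at equal depth the share of cKIT+ cells with Spi1 or Cebpd did not rise with Mcpt8. Median depth rose from 3205 to 9306 UMIs from the lowest to the highest Mcpt8 step of the cKIT- cells. Without thinning, the share of these cells with a UMI did not fall for Cebpa (92.3% and 97.9%) or Spi1 (78.8% and 83.8%). For Cebpd it was 57.0% and 55.8%. The fall in cKIT- cells is thus relative to all UMIs of the cell. These are single libraries, and the difference between them was not tested.

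Factor RNA was also found in cells outside the 4 lineage gates, and the flagged values of Cebpd, Spi1 and Irf8 were above the level in haemoglobin-high cells. Cebpd stood at 396 CPM in Ngp-high cKIT+ cells. In Cd79a-positive cKIT- cells, which carry B-lineage genes, Irf8 stood at 407 CPM. In the ungated remainder of the cKIT- library (710 cells) Cebpd stood at 354 CPM, Spi1 at 532 CPM and Irf8 at 285 CPM. Of these cells, 582 had at least 3 UMIs of the basophil genes Fcer1a, Ms4a2 and Cd200r3 together. They held 549 of the 717 Cebpd UMIs and 855 of the 1079 Spi1 UMIs of the remainder, but only 2 of its 578 Irf8 UMIs. In that remainder Cebpe, at 5.92 CPM from 12 UMIs, lay below the 39.4 CPM of the cKIT+ haemoglobin-high cells, which came from 1 cell. It lay above the 0 UMIs in the 5 haemoglobin-high cKIT- cells. Other values outside the gates were also above the cKIT+ haemoglobin-high level. These were Cebpe (747 CPM) and Gfi1 (30.9 CPM) in Ngp-high cKIT+ cells, and Cebpa (739 CPM) and Cebpb (455 CPM) in ungated cKIT- cells.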

How the results depend on the processing

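Of 574 values under alternatives, 372 stayed within the spread allowed for counting error or 1.5 times for counts, 201 moved and, of the ratios past 2-fold, 1 reversed, the Cebpb ratio of Csf1r-gated over Elane-gated cells, which was 0.647 in UMIs per cell. Of the 77 counts of factor genes past 2-fold under alternatives 71 were within 1.5 times, although the direction of the calls could differ. Ratios short of 2-fold were not counted as reversed, and in UMIs per cell several crossed 1, among them Gfi1 between the Mcpt8 gates, from 0.755 to 1.51. Among all genes, UMIs per cell gave 3588 past 2-fold between the libraries (3478 higher and 110 lower). They gave 2784 between the Mcpt8 gates (2713 and 71) and 1533 for Elane over Mcpt8 (1264 and 269). They gave 3380 for Prg2 over Mcpt8 (86 and 3294), 4289 for Csf1r over Mcpt8 (851 and 3438) and 5233 for Csf1r over Elane (660 and 4573). Higher and lower were 2 and 0 factor genes between the libraries, 0 and 0 between the Mcpt8 gates and 5 and 1 for Elane over Mcpt8. The factor genes were 2 and 3 for Prg2 over Mcpt8, 1 and 2 for Csf1r over Mcpt8 and 1 and 5 for Csf1r over Elane. In the same order a floor of 5 CPM gave 1688, 1137, 1439, 1699, 4006 and 4255 genes, and a floor of 50 CPM 569, 357, 442, 403, 1421 and 1549. A 4-fold limit gave 209, 110, 323, 202, 1179 and 1140, of 6075, 5858, 5795, 6147, 6806 and 6737 genes past the floor. Higher and lower at 4-fold were 1 and 0 factor genes between the libraries, 0 and 0 between the Mcpt8 gates and 3 and 1 for Elane over Mcpt8. They were 2 and 2 for Prg2 over Mcpt8, 1 and 0 for Csf1r over Mcpt8 and 1 and 2 for Csf1r over Elane. Prg2 over Mcpt8 gave 1844 genes by the mean of per-cell CPM and 1670 after thinning, which left 1 factor gene between the Mcpt8 gates. TMM scaling shifted the split of calls to 313 higher and 545 lower for Prg2 over Mcpt8 (474 and 367 as reported), 1365 and 1290 for Csf1r over Mcpt8 (1596 and 952) and 1456 and 1462 for Csf1r over Elane (1764 and 993), where the median log2 ratio of all genes went from 0.09 to -0.12, 0.06 to -0.15 and 0.09 to -0.17. UMIs per cell moved it to 1.12 between the libraries and -1.62 for Csf1r over Elane. Leaving out the 10 most abundant genes moved it from -0.06 to -0.16 between the libraries. The cause of these shifts was not tested. The 3 alternatives chosen after seeing the data were the wider Mcpt8 gate, Prg2-gated cells of 5000 UMIs or more and Csf1r-gated cells without C1qa. The wider gate took Cebpd to a ratio of 0.485 between the Mcpt8 gates, past 2-fold. No paired analysis was possible because each sort had 1 library. Few UMIs limit Cebpe in Mcpt8-gated cKIT- cells (11), Irf8 in the Prg2 gate (4) and Gfi1 in the Csf1r gate (0).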

Other observations

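The ungated remainder held unlike sets of cells. In the cKIT- library 582 of its 710 cells had at least 3 UMIs of the basophil genes Fcer1a, Ms4a2 and Cd200r3. These had 884 CPM of Cebpa (838 to 931), 344 CPM of Cebpd (316 to 374), 536 CPM of Spi1 (500.3 to 573) and 1696 CPM of Gata2, and 2 UMIs of Irf8 and none of Cebpe. Their Mcpt8 level was 987 CPM, under the gate. The cKIT+ cells that passed the same count (727 cells) were of another make-up, with 57.1 against 816 CPM of Fcer1a, 2073 against 26.3 CPM of Mpo and 34.1 against 355 CPM of Cdh1, and had 179 CPM of Cebpa (171 to 187), 40.1 CPM of Cebpd (36.3 to 44.2), 166 CPM of Spi1 (158 to 174) and 507 CPM of Gata2.

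Irf8 was concentrated in a few ungated cells. The 30 cKIT- cells with Siglech, a gene of plasmacytoid dendritic cells, or the class II gene H2-Aa had 3615 CPM of Irf8 (3323 to 3925, 566 UMIs), and 84.0% of those with 2000 UMIs or more had an Irf8 UMI after thinning. The 88 such cKIT+ cells had 1083 CPM (992 to 1180), and 35.8% had a UMI. Cebpb was low in both, at 6.39 CPM (1 UMI) and 22.8 CPM (11 UMIs), and Cebpe had no UMI in either.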
